A study of Mus musculus with 5 samples.

Results

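MicroRNA genes were examined for DNA methylation in common myeloid progenitors (CMP), cells of the bone marrow from which come granulocytes, monocytes, red cells and platelets. They were taken as all rows, in the authors' tables of positions with higher and with lower methylation in G5, whose assigned gene symbol was Mir followed by a digit. This gave 85 of 4688 listed positions, on 79 CpGs of 50 microRNA genes out of 2797 genes in all. The cells had been sorted from mice of mainly C576BL/6 background, as the labels spell it. The 3 G0 pools, of generation 0, carried the genotype TERTER/+ and came from mice called normal. The 2 G5 pools, of generation 5, carried TERTER/ER and came from mice with short telomeres. Genotype, generation and telomere state change together here and cannot be told apart. TERT-ER is telomerase reverse transcriptase fused to an oestrogen receptor domain, so both groups carry the allele, on one or on both copies. Each sample was a pool of mice, and the age and sex of the mice and the use of any ligand were not given in the sources used here. Reduced representation bisulfite sequencing, which reads CpGs near cut sites of a restriction enzyme, gave the percent of reads methylated at a position. A percent in a pool is an average over cells and alleles, so a change in every cell and a change in the share of some cells cannot be told apart.

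MicroRNAs are short RNAs cut from hairpin precursors, which are transcribed from genes of their own or from introns of host genes. The mature strand guides repression of messenger RNAs that pair with its seed, bases 2 to 8 from its 5′ end. In blood, microRNAs set the balance between self-renewal and maturation, and several lie in or beside CpG islands or Hox clusters where methylation is known to vary with expression. A start site here is the 5′ end of the annotated hairpin, which for many microRNAs lies far from the promoter of the primary transcript. RNA was not analysed here, so the cell type label was not checked against marker genes.

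The mature sequences below belong to microRNAs with known roles in blood cells or with islands known to be methylated in cancer. Those of Mir338, Mir671, Mir690 and Mir5103, picked from the 15 genes with 2 or more listed positions, are given too. Added is miR-92b, which is in none of these sets and whose listed CpG lay inside its hairpin. The sequences are from RefSeq (GRCm38.p6), which gave a mature sequence for 42 of the 50 genes, with the seed in capitals.
miR-10a-5p: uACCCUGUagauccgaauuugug
miR-10b-5p: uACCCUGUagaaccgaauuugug
miR-17-5p: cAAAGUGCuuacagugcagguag
miR-92b-3p: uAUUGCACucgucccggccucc
miR-181c-5p: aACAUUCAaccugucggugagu
miR-34a-5p: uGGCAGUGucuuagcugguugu
miR-9-5p: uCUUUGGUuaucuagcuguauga
miR-199b-3p: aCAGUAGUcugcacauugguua
miR-200c-3p: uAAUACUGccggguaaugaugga
miR-205-5p: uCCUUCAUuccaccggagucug
miR-338-3p: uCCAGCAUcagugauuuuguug
miR-671-5p: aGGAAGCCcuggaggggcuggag
miR-690: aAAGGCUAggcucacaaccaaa
miR-5103: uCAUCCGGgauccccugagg

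Of the 69 mature sequences of these 42 genes, which held 68 seeds, 1 seed was shared between genes, that of miR-10a-5p and miR-10b-5p. These arms of 23 bases differ by 1 substitution, U12A, counted from the 5′ end with the miR-10a base first. Mir10a and Mir10b stood in opposite tables, as described further on.

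The stretches below show where neighbouring CpGs of 1 gene were listed together. They are read from the plus strand of GRCm38, 5′ to 3′, with the listed CpGs in capitals.
Mir219-2, chr2:29846175-29846320: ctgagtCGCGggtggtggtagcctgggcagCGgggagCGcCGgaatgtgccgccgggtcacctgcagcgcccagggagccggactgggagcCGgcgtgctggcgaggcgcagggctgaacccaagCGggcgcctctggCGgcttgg
Mir5103, chr1:34433054-34433117: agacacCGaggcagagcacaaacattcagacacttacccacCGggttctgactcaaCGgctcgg
Mir690, chr16:28596369-28596445: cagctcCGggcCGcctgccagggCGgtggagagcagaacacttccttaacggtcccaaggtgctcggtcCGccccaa
Mir10a, chr11:96310751-96310868: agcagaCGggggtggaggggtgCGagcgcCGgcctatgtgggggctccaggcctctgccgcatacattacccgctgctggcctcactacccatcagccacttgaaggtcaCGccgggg

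In these stretches 8 of 16 CpGs were listed at Mir219-2, 3 of 4 at Mir5103, 4 of 6 at Mir690 and 4 of 8 at Mir10a. The CpGs left in lower case are in neither table, and whether they were covered is not known.

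Over all microRNA genes, 50 positions of 30 genes were higher in G5 and 35 positions of 22 genes were lower. Both directions occurred at Mir598 and Mir1957. Higher positions had a median G0 level of 53.4% and a median G5 level of 74.6%, and lower positions 68.9% and 40.5%. The median difference was 16.6 points upward and 15.2 points downward, where all listed positions had medians of 16.3 points in both tables. The largest differences were 30.4 points upward at Mir5104 and 30.5 points downward at Mir690. Other genes reached 95.8 points upward and 55.5 points downward. No microRNA position went from fully unmethylated to fully methylated or the reverse.

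**Figure D1:**
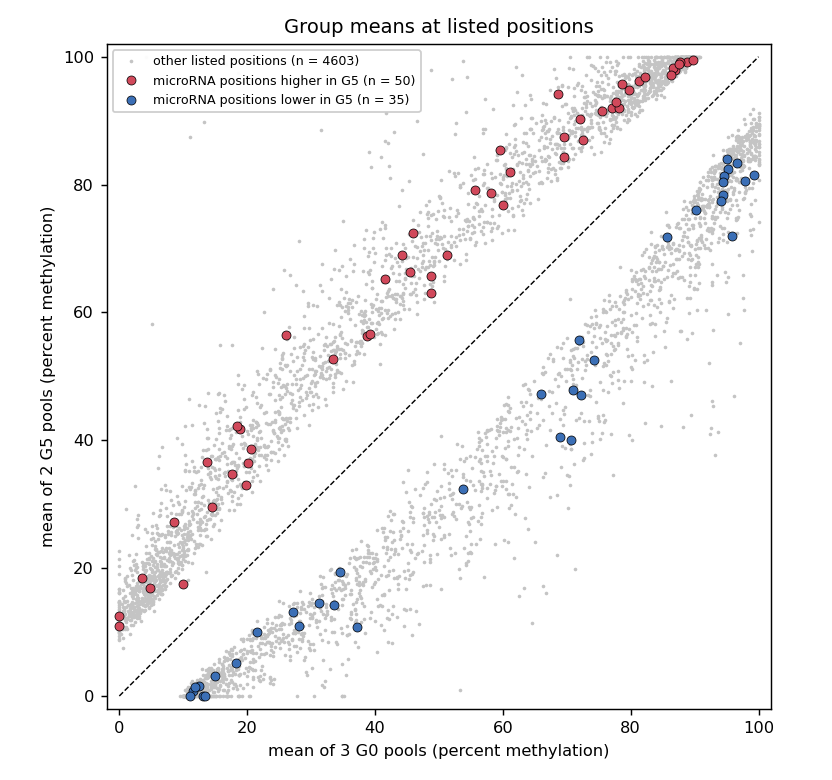
Mean percent methylation of the 3 G0 pools (x axis) and the 2 G5 pools (y axis) at each listed position. MicroRNA positions are coloured by table, 50 higher and 35 lower, all other listed positions are grey, and the dashed line marks equal means; microRNA positions keep within 30.5 points of it.

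The pools of the groups were apart, meaning that no G5 pool lay within the range of the G0 pools or beyond it on the other side, at 42 of the 50 higher positions, or 84.0%, against 86.9% of all higher positions in the table. Among lower positions they were apart at 32 of 35, or 91.4%, against 83.9% of all lower positions. In limma's moderated test on the percents, adjusted by Benjamini-Hochberg over all 4688 positions, 21 of the 50 higher positions (42%) passed an adjusted p of 0.05, against 33.2% of all higher positions. Of the lower positions 11 of 35 (31.4%) passed, against 33.0% of all lower positions. Mir219-2 supplied 8 of the 21, and without it 13 of 38 higher positions (34.2%) passed. With a variance trend on the mean level limma passed 24 of 50 higher microRNA positions against 1297 of 2618 in the whole table, and on a logit scale 20 of 50 against 1103 of 2618, so the higher share in microRNA genes was not kept. Both tables hold only positions that the authors' test had selected on these same pools, so neither count is independent evidence of a difference. The limma calls depended on the pools. Without any 1 of the G0 pools limma passed 0 of the 85 positions. An unadjusted p under 0.05 was then reached by 24 to 34 higher and 13 to 17 lower ones. Of all listed positions limma then passed at most 9 of 2618 higher and 0 of 2070 lower ones. The loss without a G0 pool was thus not particular to microRNA genes. Without G5 pool 2 the share passing limma fell more at microRNA positions than over all listed positions, in both directions. That fit leaves 1 G5 pool, so its counts are not given. A permutation over 3 and 2 pools cannot give a p below 0.1, so no such test is given for single genes, and the depth behind a percent is unknown.

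Methylation rose most widely next to Mir219-2, a gene of miR-219, which is known in mice for its role in the maturation of oligodendrocytes. All 12 positions assigned to it were higher in G5, and all lay upstream of the hairpin, from 10 to 587 bp before the start site, inside the authors' promoter window and a CpG island. On chromosome 2 they run from 29845736 to 29846313 (mm10), where GENCODE M21 has no gene. Averaged over the 12 positions, methylation was 48.1%, 49.5% and 50.4% in the G0 pools and 65.0% and 71.0% in the G5 pools. The G0 pools lay within 2.38 points of each other and both G5 pools stood clearly above them. Group means were 49.3% ± 1.20 (SD, n = 3) for G0 against 68.0% ± 4.28 (SD, n = 2) for G5, a difference of 18.6 points. At none of the 12 did the pools overlap, and limma passed 8 of them, the smallest adjusted p being 0.0416. Of all listed higher positions 86.9% were apart and 33.2% passed. The 12 are neighbours, some of them both strands of 1 CpG, and so are not independent of each other.

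Within that island the level differed from CpG to CpG while all were higher in G5. The CpG next to the hairpin, 10 and 11 bp before the start site on the 2 strands, was read at 89.9%, 78.9% and 75.0% in the G0 pools and 98.0% and 94.2% in the G5 pools on one and at 78.2%, 82.0% and 79.1% in the G0 pools and 94.6% and 95% in the G5 pools on the other. At 381 bp the level was low, with 28.3%, 14.7% and 16.5% in the G0 pools and 34.8% and 31.1% in the G5 pools. At 455 bp it was also low, at 21.2%, 14.0% and 17.8% in the G0 pools and 34.9% and 34.4% in the G5 pools. Only 2 bp farther, at 457 bp, it was 51.6%, 51.0% and 64.2% in the G0 pools and 73.7% and 84.5% in the G5 pools. These neighbours, the first capitals of the stretch printed above, thus differed by 38.0 points in G0 and by 44.5 points in G5, more than either differed between the groups. The largest rise was at 574 bp, at 43.0%, 45.3% and 49.5% in the G0 pools and 67.1% and 77.8% in the G5 pools.

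Directly after the hairpin of Mir5103, 4 positions were higher in G5. They lay 90 to 140 bp from the start site, that is 10 to 60 bp past the end of the 79 bp hairpin, in the promoter window and in an exon of the non-coding gene Gm37233 of GENCODE M21. Methylation over the 4 positions was 15.3%, 10.9% and 23.6% in the G0 pools and 32.5% and 42.4% in the G5 pools. All G5 pools were above all G0 pools at each position, and on average over the 4 G0 pool 3 was the highest of its group. Means were 16.6% ± 6.41 (SD, n = 3) for G0 against 37.5% ± 6.99 (SD, n = 2) for G5, a difference of 20.8 points. Limma passed 2 of the 4, with adjusted p of 0.0468 and 0.0444, against 33.2% of all listed higher positions.

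The strongest fall over a run of positions was at Mir690, where 4 positions lay 3606 to 3670 bp downstream of the start site in an intron of Fgf12, a gene of the fibroblast growth factor family. They cover chromosome 16 from 28596374 to 28596438. Methylation was 75.8%, 66.3% and 70.0% in the G0 pools and 46.5% and 41.3% in the G5 pools when averaged over the 4. The groups were apart at each position, and the averages of the nearest pools stood 19.8 points from each other. Means were 70.7% ± 4.77 (SD, n = 3) for G0 against 43.9% ± 3.71 (SD, n = 2) for G5, a difference of -26.8 points. All 4 passed limma, with adjusted p from 0.0412 to 0.0452, against 33.0% of all listed lower positions. Without G5 pool 2 the difference was -24.2 points, and without G5 pool 1 it was -29.4.

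**Figure D2:**
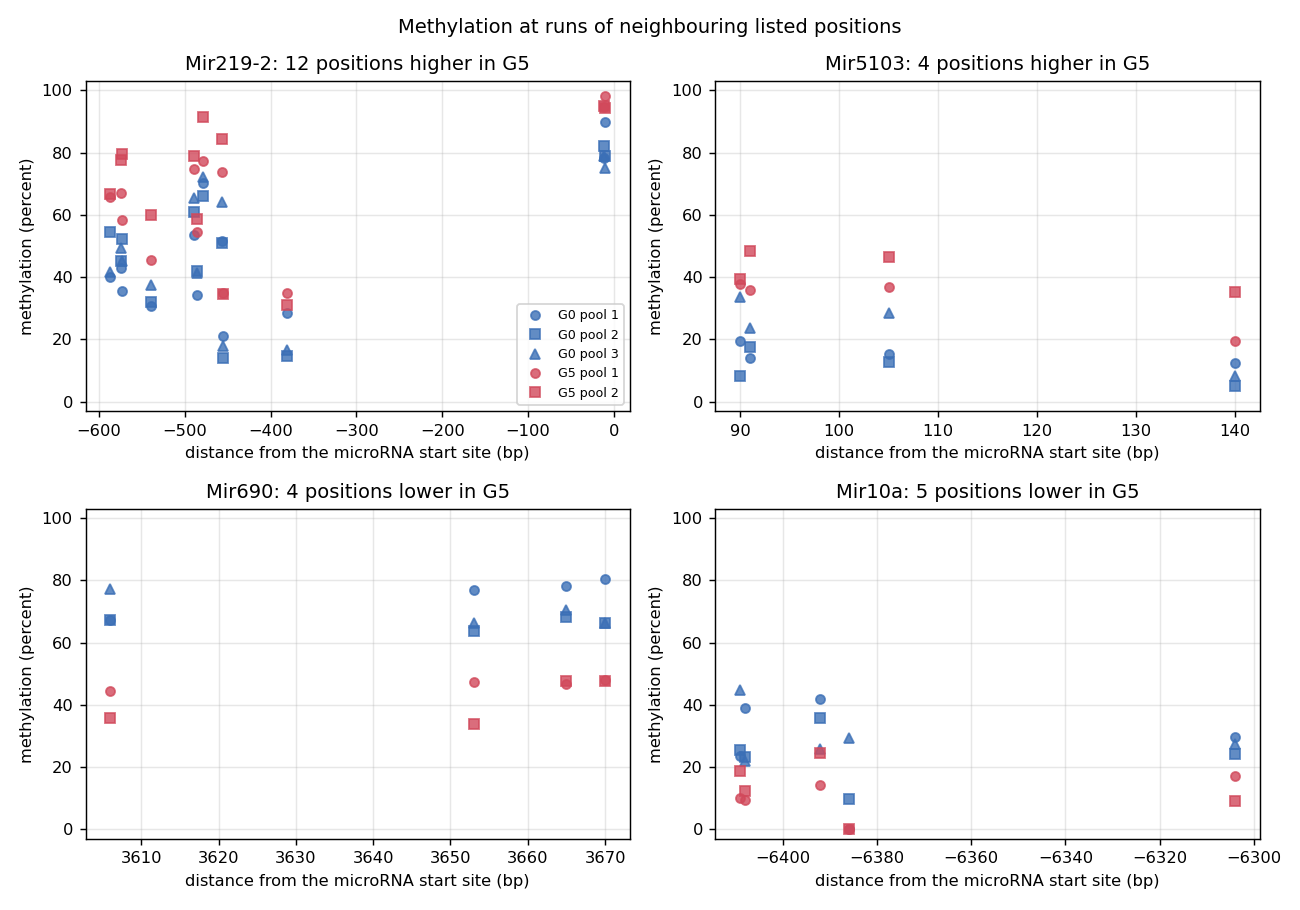
Percent methylation of every pool (y axis) against distance from the microRNA start site in bp (x axis; negative is upstream) at the 12 positions of Mir219-2, 4 of Mir5103, 4 of Mir690 and 5 of Mir10a. Blue symbols are the 3 G0 pools and red symbols the 2 G5 pools; the groups separate at all positions except 1 of Mir10a, 6386 bp upstream.

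Other positions within 2 kb of a start site belonged to 9 genes. At Mir92b a single CpG lay inside the hairpin itself, 8 bp from the start site, and no other listed position fell in any of the 1005 hairpins of the RefSeq table used here. miR-92b belongs to the family of miR-92a from the miR-17 cluster. Its hairpin of 83 bases, chr3:89227116-89227198 on the minus strand in RefSeq (GRCm38.p6), is printed with the listed CpG in capitals.
Mir92b: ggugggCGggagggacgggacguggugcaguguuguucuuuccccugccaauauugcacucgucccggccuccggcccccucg

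The Mir92b CpG stood at 8.22%, 16.7% and 8.06% in the G0 pools and 0% and 0% in the G5 pools. It was thus lowly methylated in G0 and listed at 0 in both G5 pools. Means were 11% ± 4.92 (SD, n = 3) for G0 against 0% ± 0 (SD, n = 2) for G5, and limma did not pass it (adjusted p = 0.0779). The authors marked the position as promoter, exon and island shore, and the nearest start of a protein-coding gene (a coding start), that of Mtx1, was 139 bp away.

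Mir9-3 encodes miR-9, which is abundant in neural cells and whose human genes are known to be methylated in leukaemias and other cancers. Its CpG lay 199 bp from the start site, 108 bp past the hairpin, in a CpG island and an intron of the host transcript Mir9-3hg. Methylation there was 0%, 5.56% and 5.13% in the G0 pools and 25.4% and 11.6% in the G5 pools. G0 was close to unmethylated and G5 pool 1 was the highest. Means were 3.56% ± 3.09 (SD, n = 3) for G0 against 18.5% ± 9.74 (SD, n = 2) for G5, and limma did not pass it (adjusted p = 0.0641). Without G5 pool 1 the difference of 15.0 points was 8.07.

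miR-124, abundant in neurons and likewise methylated in human leukaemias, was in the lower table at Mir124a-2. Its island shore CpG, 1184 bp upstream and in an intron of Mir124-2hg, stood at 16.3%, 11.3% and 17.4% in the G0 pools and 1.28% and 5.05% in the G5 pools. Every G5 pool was below every G0 pool, with means of 15.0% ± 3.26 (SD, n = 3) for G0 against 3.17% ± 2.66 (SD, n = 2) for G5. Limma did not pass it (adjusted p = 0.0637).

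Mir671 encodes miR-671, known for cutting the circular RNA Cdr1as. Its 2 positions, 975 and 1027 bp upstream, lay in coding sequence of Chpf2, over an exon of Smarcd3, and were both lower in G5. The gene average was 60.7%, 62.2% and 65.7% in the G0 pools and 42.3% and 45.8% in the G5 pools. The pools of a group kept close together, with means of 62.9% ± 2.57 (SD, n = 3) for G0 against 44.0% ± 2.42 (SD, n = 2) for G5, and both positions passed limma (adjusted p of 0.0456 and 0.0464).

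Mir200c belongs to the miR-200 family, which keeps cells epithelial by repressing Zeb factors. Its promoter CpG, 844 bp upstream, was highly methylated, at 95.5%, 98.0% and 92.0% in the G0 pools and 81.0% and 83.7% in the G5 pools. Methylation was lower in both G5 pools by 12.8 points on average, and limma did not pass the position (adjusted p = 0.0553).

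At Mir1936 the CpG 621 bp upstream, in an intron of Itpk1, read 49.1%, 45.1% and 52.3% in the G0 pools and 66.9% and 64.4% in the G5 pools. Both G5 pools were higher, by 16.9 points on average, and limma passed the position (adjusted p = 0.0456). At Mir5046, 357 bp upstream and in an island within an intron of Rps6ka4, levels were 91.9%, 87.8% and 81.1% in the G0 pools and 95.9% and 100% in the G5 pools. Both G5 pools were near full methylation there, as at Mir3102, 319 bp downstream in an intron of Arhgef17, where levels were 76.7%, 89.8% and 93.3% in the G0 pools and 100% and 96.6% in the G5 pools. Neither position passed limma (adjusted p of 0.0858 and 0.116), and without G0 pool 1 the Mir3102 difference of 11.7 points was 6.72. The intronic CpG of Mir1935 in Atp9a, 1884 bp upstream, stood at 100%, 97.7% and 100% in the G0 pools and 68.0% and 95% in the G5 pools. G5 pool 1 was the lowest by far, and without it the difference of -17.7 points was -4.24.

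MicroRNAs with roles in blood cells were compared through a list of 90 symbols (older and newer names of 1 gene counted apart) plus the Mir30 family, of which 5 genes with 10 positions were in the tables. Of these positions 2 were higher, at Mir10b and Mir34a, and 8 were lower, at Mir10a, Mir17 and Mir181c. The higher ones had a median difference of 14.7 points with 1 of 2 past limma, and the lower ones -14.6 points with 1 of 8 past limma, where limma passed 33.2% and 33.0% of all listed positions. Over all microRNA positions these medians were 16.6 points upward and 15.2 points downward.

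Mir10a lies in the Hoxb cluster and Mir10b in the Hoxd cluster, and both are known to be active in blood progenitors and raised in some myeloid leukaemias. All 5 Mir10a positions were lower in G5. They lay on 4 CpGs 6304 to 6409 bp upstream of the start site, between chromosome 11 positions 96310756 and 96310861, with Hoxb5 as the nearest coding start at 7245 bp or more. The gene average was 26.8%, 23.7% and 29.9% in the G0 pools and 10.2% and 12.9% in the G5 pools. Both G5 pools were below all G0 pools, and means were 26.8% ± 3.11 (SD, n = 3) for G0 against 11.6% ± 1.93 (SD, n = 2) for G5, a difference of -15.2 points. Single positions spread more: 1 position, at 6386 bp, read 0%, 9.76% and 29.4% in the G0 pools and 0% and 0% in the G5 pools, so that the groups overlapped. At 6304 bp the reading was 29.6%, 24.3% and 27.5% in the G0 pools and 17.1% and 9.09% in the G5 pools, without overlap. Limma passed 0 of the 5, of which 2 had an unadjusted p under 0.05, and the adjusted p ran from 0.0550 to 0.192.

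At Mir10b the single position was higher in G5. It lay 12941 bp from the start site, 12873 bp past the hairpin, in an island shore, and 609 bp upstream of the GENCODE coding start of Hoxd3, which is nearer. Levels were 16.3%, 11.5% and 15.7% in the G0 pools and 33.0% and 26.2% in the G5 pools. The G5 pools lay above all G0 pools, with means of 14.5% ± 2.63 (SD, n = 3) for G0 against 29.6% ± 4.76 (SD, n = 2) for G5, and limma passed the position (adjusted p = 0.0492). Mir10a and Mir10b, whose guide arms share the seed ACCCUGU, were thus listed in opposite directions at positions several kb from either hairpin.

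Mir17 opens the miR-17 cluster, which is known to drive cell proliferation and, in mice, the survival of early lymphocytes. Its island CpG, 2559 bp upstream on chromosome 14 at 115041112, stood at 7.94%, 16.3% and 10.5% in the G0 pools and 0% and 1.49% in the G5 pools. Methylation was nearly absent in G5, with means of 11.6% ± 4.30 (SD, n = 3) for G0 against 0.746% ± 1.06 (SD, n = 2) for G5, and limma did not pass it (adjusted p = 0.0749). miR-17 and miR-92b, the family of the last member of that cluster, were thus both listed as lower from G0 means of 11.6% and 11%.

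Mir181c belongs to a family that tunes signalling in lymphocytes and is used in several blood lineages. Its 2 shore positions, 13195 and 13391 bp upstream, gave an average of 28.6%, 25.5% and 23.5% in the G0 pools and 8.45% and 10.9% in the G5 pools. Both were lower in both G5 pools, with means of 25.9% ± 2.58 (SD, n = 3) for G0 against 9.68% ± 1.74 (SD, n = 2) for G5. Limma passed the farther one (adjusted p = 0.0444) and not the nearer one (adjusted p = 0.0581).

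Mir34a is a direct target of p53 and restrains the cell cycle, and its human promoter is methylated in many cancers. Its position, 4309 bp downstream of the start site and outside any GENCODE gene, read 46.9%, 59.5% and 40% in the G0 pools and 56.8% and 69.4% in the G5 pools. G0 pool 2 exceeded G5 pool 1, so the groups overlapped, and limma did not pass it (adjusted p = 0.110). Means were 48.8% ± 9.91 (SD, n = 3) for G0 against 63.1% ± 8.92 (SD, n = 2) for G5. Without G5 pool 2 the difference of 14.3 points was 7.97.

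MicroRNAs whose islands are known to be methylated in human cancers formed a second list of 48 symbols, of which 7 genes were in the tables with 1 position each. Higher were Mir9-3, Mir10b, Mir34a and Mir205, and lower were Mir124a-2, Mir199b and Mir200c. The median difference was 14.6 points upward and -12.8 points downward, and limma passed 1 of the 4 and 1 of the 3. Over all microRNA positions the medians were 16.6 and 15.2 points in size, and limma passed 33.2% of all listed higher and 33.0% of all lower positions. Mir205, an epithelial microRNA, was read 2067 bp upstream at 87.0%, 89.7% and 89.6% in the G0 pools and 100% and 98.4% in the G5 pools. It was nearly fully methylated in G5, and limma did not pass it (adjusted p = 0.0668). The CpG of Mir199b, 14475 bp from the start site in an intron of Dnm1, was at 97.3%, 90.0% and 95.9% in the G0 pools and 75.8% and 80.9% in the G5 pools. Both G5 pools were lower, with means of 94.4% ± 3.87 (SD, n = 3) for G0 against 78.3% ± 3.60 (SD, n = 2) for G5, and limma passed it (adjusted p = 0.0474).

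**Figure D3:**
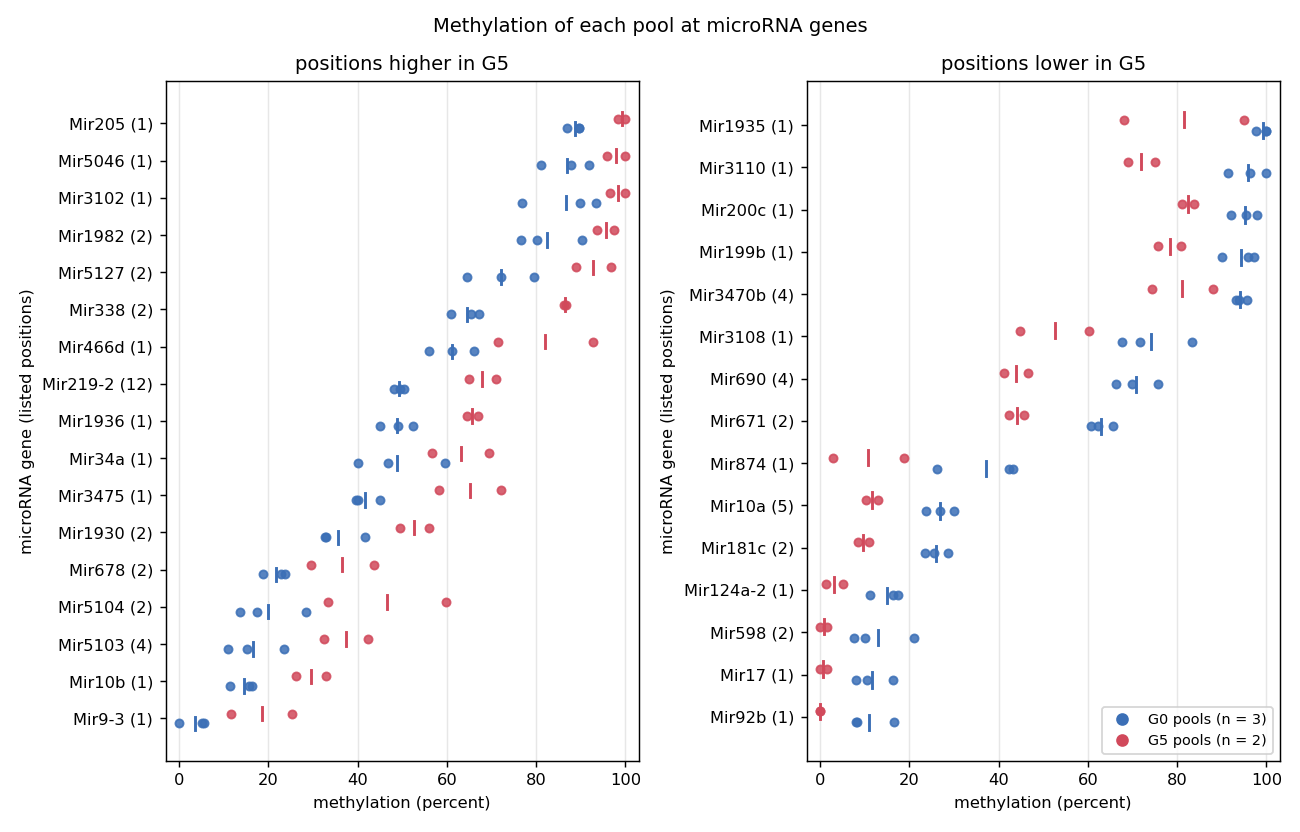
Percent methylation of each pool (x axis), averaged over the listed positions of a microRNA gene (number in brackets), for the 32 genes chosen by distance, list, number of positions or size of difference. Blue points are G0 pools, red points G5 pools, and bars the group means; among the genes plotted, the gene averages overlap between groups at Mir34a only.

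Further runs or large differences lay farther from their hairpins. Mir338, which acts with miR-219 in mouse oligodendrocytes, had 1 CpG read on both strands 5182 and 5183 bp upstream, where the authors marked an intron and GENCODE places an exon of Aatk outside its coding sequence. The average was 67.3%, 65.4% and 61.0% in the G0 pools and 86.7% and 86.2% in the G5 pools. Both strands were higher in both G5 pools, by 21.9 points on average, and both passed limma (adjusted p of 0.0462 and 0.0426). Mir5104 had the largest mean rise, 26.7 points, at 2 exonic island positions in coding sequence of Zc3h12d, 31193 and 31208 bp away. The average was 17.4%, 28.5% and 13.7% in the G0 pools and 33.3% and 59.8% in the G5 pools. G5 pool 2 stood far above the other pools, and without it the difference was 13.5 points. Limma passed the nearer position (adjusted p = 0.0456) and not the other (adjusted p = 0.108).

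On the X chromosome, the intergenic island CpG assigned to Mir3475, 32799 bp upstream, was at 39.7%, 45.0% and 40% in the G0 pools and 58.3% and 72.2% in the G5 pools, and limma passed it (adjusted p = 0.0444). Its rise of 23.7 points was the largest of the 5 X-linked microRNA positions. The sex of the mice was not given, so a different sex mix of the pools cannot be told apart from a group difference there. At Mir5127, on chromosome 18, 2 intergenic positions averaged 64.6%, 72.2% and 79.4% in the G0 pools and 88.9% and 96.8% in the G5 pools, and the one 402442 bp away passed limma (adjusted p = 0.0412). That distance is the longest among microRNA positions. The 2 island positions of Mir1930, 23156 and 23167 bp away, averaged 41.6%, 32.8% and 32.6% in the G0 pools and 56.0% and 49.4% in the G5 pools, with 1 past limma (adjusted p = 0.0496). They lay nearer to a coding start of Tspear in GENCODE.

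Mir678 had 2 intergenic positions about 3.4 kb downstream that averaged 18.8%, 22.9% and 23.7% in the G0 pools and 29.6% and 43.6% in the G5 pools. The position at 3434 bp passed limma (adjusted p = 0.0456), while at 3398 bp G5 pool 1 lay among the G0 pools, and without G5 pool 2 the average difference of 14.8 points was 7.75. The 2 positions of Mir1982 in coding sequence of Lingo3 averaged 90.3%, 80.3% and 76.6% in the G0 pools and 97.5% and 93.7% in the G5 pools, and limma passed 0 of them, of which 1 had an unadjusted p under 0.05.

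Among lower positions far from their hairpins, Mir874 had the largest mean fall after Mir690. Its intergenic CpG, 38646 bp away, stood at 26.1%, 43.3% and 42.3% in the G0 pools and 2.94% and 18.8% in the G5 pools. The groups were apart, with means of 37.2% ± 9.67 (SD, n = 3) for G0 against 10.8% ± 11.2 (SD, n = 2) for G5, and limma passed it (adjusted p = 0.0480). Mir3108, 103069 bp away, read 71.7%, 67.6% and 83.3% in the G0 pools and 60.3% and 44.8% in the G5 pools. It did not pass limma (adjusted p = 0.0536), and without G5 pool 2 its difference of -21.7 points was -13.9.

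Mir598 had both directions within introns of Xkr6. The 2 lower positions, 16141 and 16393 bp from the start site, averaged 21.1%, 10.2% and 7.54% in the G0 pools and 0% and 1.63% in the G5 pools. The higher one, at 46311 bp and nearer to the start of Xkr6, read 67.6%, 56.9% and 50% in the G0 pools and 70.0% and 87.5% in the G5 pools. The groups were apart at all 3, and limma passed 0 of them, of which 0 of 2 and 1 of 1 had an unadjusted p under 0.05. Without G5 pool 2 the higher difference of 20.6 points was 11.8, and without G0 pool 1 the lower one of -12.1 was -8.03. At Mir1957 a position 3899 bp upstream was lower, at 93.3%, 88.9% and 100% in the G0 pools and 70.5% and 84.5% in the G5 pools. The one at 19597 bp was higher, at 92.0%, 86.6% and 84.1% in the G0 pools and 97.9% and 100% in the G5 pools. Limma passed neither (adjusted p of 0.0632 and 0.0691), and without G5 pool 1 the lower difference of -16.6 points was -9.59.

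For 5 genes with 8 positions the start site that the authors' distances imply is not the place of the gene in RefSeq (GRCm38.p6). These are Mir3110, Mir3470b, Mir3965, Mir421 and Mir466d, where RefSeq puts the gene on another chromosome for the first 3 and elsewhere on the same chromosome for the other two. The start sites of 43 genes lay within 3 bp of RefSeq's, and Mir1935 and Mir1957 had no entry in the table used. The 4 positions given to Mir3470b lie in Shank2, a scaffold gene of synapses, 3 of them in coding sequence. They averaged 95.6%, 93.8% and 93.1% in the G0 pools and 88.0% and 74.4% in the G5 pools. G5 pool 2 was the lowest, and without it the difference of -13.0 points was -6.22. Limma passed 0 of the 4, of which 2 had an unadjusted p under 0.05. The position given to Mir3110 read 100%, 96.3% and 91.3% in the G0 pools and 68.9% and 75.0% in the G5 pools and passed limma (adjusted p = 0.0426). The one given to Mir466d, in an intron of Camk1d, read 56.1%, 61.2% and 66.1% in the G0 pools and 92.6% and 71.4% in the G5 pools. G5 pool 1 was the highest, and without it the difference of 20.9 points was 10.3.

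The remaining genes had 1 position each. Higher in G5 and past limma was Mir1951, 138312 bp from its start site in an untranslated exon of BC052040 (13.8 points, adjusted p = 0.0497). So was Mir719, 56473 bp from its start site in an intron of Atp8a2, whose start is nearer (18.2 points, adjusted p = 0.0482). In the lower table Mir138-1, a microRNA of synapses, also passed limma (adjusted p = 0.0497). Its CpG, 10421 bp from the start site, read 91.4%, 94.2% and 97.7% in the G0 pools and 81.2% and 79.7% in the G5 pools. Of those that did not pass limma, Mir218-2, Mir346, Mir676, Mir804 and Mir3965 were higher with the groups apart, by 9.79 to 17.1 points. Their positions lay 173739, 35523, 86243, 4339 and 7089 bp from the assigned start sites, in that order. Without G0 pool 2 the difference of 14.4 points at Mir346 was 9.30, and that of 10.8 at Mir676 was 7.09. Mir721, 27840 bp from its start site, was listed at 0 in all 3 G0 pools and at 15.8% and 6.17% in G5. Without G5 pool 1 its difference of 11 points was thus 6.17. Lower and apart were Mir139, Mir698, Mir1895 and Mir450b, by 10.5 to 18.8 points. They were read 9795, 7834, 91201 and 8765 bp from the start sites, in that order. Mir1895 read 62.5%, 66.4% and 69.2% in the G0 pools and 58.1% and 36.3% in the G5 pools, and Mir450b 100%, 98.0% and 95.6% in the G0 pools and 92.2% and 68.8% in the G5 pools. Both rested mostly on G5 pool 2, without which the difference of -18.8 points at Mir1895 was -7.88 and that of -17.3 at Mir450b was -5.66. miR-139 is known as a tumour suppressor in several cancers, and its CpG in an intron of the host gene Pde2a read 17.3%, 26.2% and 21.2% in the G0 pools and 16.9% and 3.23% in the G5 pools. G5 pool 1 there lay just under the G0 pools, and without G5 pool 2 the difference of -11.5 points was -4.68.

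At 11 positions the pools of both groups overlapped, and several rested on 1 G5 pool. Mir582 was listed at 0 in the 3 G0 pools and in G5 pool 1 and at 25.0% in G5 pool 2. That CpG lies in coding sequence of Pde4d, 320 bp from a start of that gene, and 207784 bp from the assigned start site. Mir421 read 10.9%, 7.46% and 11.5% in the G0 pools and 2.06% and 32.9% in the G5 pools. Without G5 pool 2 its difference turned from 7.52 to -7.89 points. Mir509, 118447 bp from its start site, read 85.5%, 82.4% and 89.2% in the G0 pools and 83.3% and 60.2% in the G5 pools. Mir1953, at 2997 bp, read 86.1%, 68.2% and 78.9% in the G0 pools and 100% and 86.0% in the G5 pools. The difference of -14.0 points at Mir509 was -2.38 without G5 pool 2, and that of 15.3 points at Mir1953 was 8.25 without G5 pool 1. The other overlapping positions were 1 each of Mir34a, Mir678, Mir1982, Mir5104, Mir5127, Mir10a and Mir3470b.

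**Figure D4:**
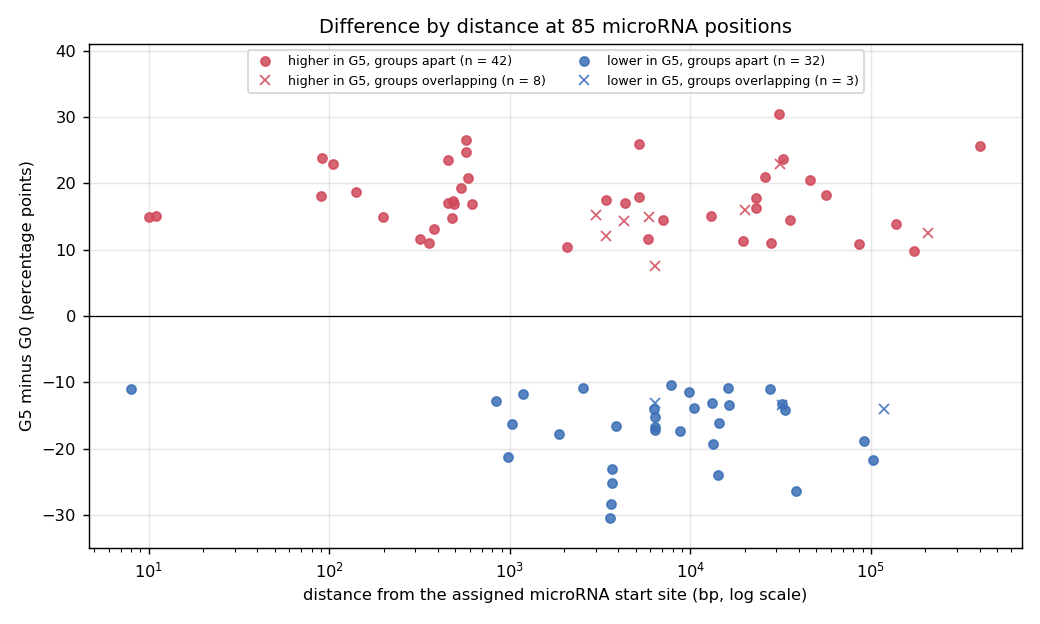
Difference of group means in percentage points (G5 minus G0, y axis) against absolute distance from the assigned microRNA start site in bp (x axis, log scale) for the 85 positions. Filled points have no overlap of the pools and crosses have overlap, and 52 positions lie within 10 kb. Differences of both signs occur between 844 and 118447 bp. Nearer positions are all higher except that of Mir92b at 8 bp, and farther ones are all higher.

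In location, 26 positions lay within 2 kb and 52 within 10 kb of the assigned start site, and 6 lay over 100 kb away, with a median of 6304 bp against 7744 bp for all listed positions. Relative to these 43 hairpins, 39 positions lay before, 34 after and 1 inside. The authors' flags put 20 of the 50 higher positions in a promoter (40%) and 3 of the 35 lower ones (8.57%), where all listed positions gave 28.2% and 27.7%. Island positions were 23 of 50 higher (46.0%) and 2 of 35 lower (5.71%), against 43.0% and 28.2% of all. Mir219-2 alone supplied 12 of the 20 promoter and 12 of the 23 island positions. Exons held 10% of higher and 20% of lower microRNA positions, against 37.4% and 26.6% of all. By GENCODE M21, 21 positions lay in introns and 11 in coding sequence of protein-coding genes, 41 lay outside any gene, and for 6 a coding start was nearer than the microRNA. These shares are descriptions of selected positions and carry no test.

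In windows around each CpG, GC content had a median of 63.4% at higher and 58.9% at lower microRNA positions, against 62.9% and 58.9% of all. The CpG itself lay in the motif CCGG, which reads the same on both strands, at 24 higher (48.0%) and 21 lower positions (60.0%), against 41.9% and 54.8%. For 6 microRNA CpGs both strands were listed, at Mir219-2 (2 CpGs), Mir338, Mir5103, Mir10a and Mir3470b. Levels of the strands differed by 4.64 to 9.94 points on average over the pools, and the direction was the same on both strands each time.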

How the data were processed

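DNA from FACS-sorted CMP of 3 G0 and 2 G5 pools was sequenced after bisulfite treatment. Per the submitters' processing notes, Bismark 0.7.11, Bowtie, methylKit and the mm10 build were used. The authors deposited percent methylation per position and pool for positions passing their test. The authors' q-values in both deposited tables were at most 0.00999 and absolute differences at least 10.0 points. Coverage per position was not given in the sources used here. Positions with symbols Mir plus a digit were kept, and coordinates are printed as the files give them. Percents were fitted with limma 3.58.1 in R 4.3.3 over all 4688 positions, with Benjamini-Hochberg adjustment, after testing on simulated data. Groups were called apart when no pools overlapped. Every gene was named, and full values were given to genes within 2 kb, in either list, or among the 5 per direction with most positions or largest mean difference (ties kept). Members and lists were chosen with earlier results of these data known. Separate pools come from separate mice only as far as the labels say so, and p-values measure the spread between pools. No depth, batch or cell type marker was available here. Annotation was from GENCODE M21 and RefSeq (GRCm38.p6), the assembly of mm10. Alternatives were each pool left out, a replicate block, a logit scale, a variance trend, a stricter q-value, both strands averaged and a limit on distance.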

Additional observations from a re-analysis of the deposited data

How the results depend on the processing

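Limma passed 21 higher and 11 lower microRNA positions. Leaving out each pool in turn gave 0 to 18 higher and 0 to 12 lower, with 0 whenever a G0 pool was left out, which also removes samples from the test. Counts of positions with groups apart were 44 to 48 higher and 32 to 34 lower with any 1 pool left out, which can only raise them. The replicate block passed 0 higher and 0 lower microRNA positions in limma, with 19 and 10 at an unadjusted p under 0.05. It also passed 0 of all 2618 higher and 0 of all 2070 lower positions. The labels give no pairing, and same-numbered pools deviated with correlations of 0.0124 and 0.0476. The deviations of the 2 G5 pools mirror each other, so these correlations cannot show whether pools are paired. For lower positions the logit scale gave 19 of 35 (all lower positions: 894 of 2070) and the variance trend 20 of 35 (1018 of 2070); the cause was not tested. At an authors' q-value under 0.001, limma passed 11 of 17 higher (all: 680 of 1134) and 7 of 14 lower (all: 465 of 836). Of these 17 and 14 positions, 16 and 13 were apart. Within 10 kb, 14 of 32 higher and 6 of 20 lower positions passed limma, and 27 of 32 higher and 19 of 20 lower were apart. Without a limit on distance or q-value, limma passed 33.2% of all listed higher and 33.0% of all lower positions. Of these, 86.9% of the higher and 83.9% of the lower ones were apart. The difference of Mir421 was -7.89 points without G5 pool 2 and 22.9 points without G5 pool 1. That of Mir582 was 0 without G5 pool 2. No other gene's mean difference changed sign with a pool left out, but 1 of the 4 Mir3470b positions did without G5 pool 2, and the Mir421 position did on the logit scale. Depth per position is unknown, so counting error cannot be given.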
